A study of Mus musculus with 3 samples.

Results

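Mirtrons are microRNAs (miRNAs) made from short introns. The spliced intron folds into a hairpin that Dicer cuts directly, so the step by which Drosha trims a canonical miRNA precursor is skipped. Each hairpin has a 5p arm at the intron's start, which is often rich in G, and a 3p arm at its end, which is rich in C and U. miR-1224, miR-877, miR-702 and miR-1981 were among the early mirtrons described in mammals. Both arms of these 4 hairpins were taken by exact name from the array, which gave 8 of the 1881 mouse miRNAs it probes.

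The arrays measured RNA of exosomes, the small vesicles cells shed into the medium around them. The vesicles came from mesenchymal stem cells of bone marrow, which grow attached to the dish and can form bone, cartilage and fat, taken from wild type male C57BL/6 mice of 4 to 6 weeks and used at passages 3 to 6. The cells of all groups were cultured the same way except in their last 24 h. N-Exo came from normoxic cells, H-Exo from hypoxic cells, and H+G-Exo from hypoxic cells that also received GW4869, an inhibitor of the neutral sphingomyelinase that takes part in exosome formation. The oxygen level and the dose of GW4869 are not given in the sources used here. The vesicles of each preparation came from the medium of 10 dishes of a primary culture, which can still hold some other marrow cells. Each group was 1 array, so no difference has a replicate check, no test was possible and no p-value is given. Values with ± give the SD among a probe's spots within 1 array, a technical error only. With such pooled vesicles, fewer vesicles of a kind and less of a miRNA in each vesicle cannot be told apart.

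The hairpins are shown here because their ends carry the marks of an intron, with the mature arms in capitals, 5′ to 3′, from RefSeq on GRCm38.p6.
Mir1224: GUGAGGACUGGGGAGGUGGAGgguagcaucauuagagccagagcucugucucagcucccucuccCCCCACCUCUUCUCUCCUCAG
Mir877: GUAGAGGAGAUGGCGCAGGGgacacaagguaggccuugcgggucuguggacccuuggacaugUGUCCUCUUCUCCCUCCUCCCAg
Mir702: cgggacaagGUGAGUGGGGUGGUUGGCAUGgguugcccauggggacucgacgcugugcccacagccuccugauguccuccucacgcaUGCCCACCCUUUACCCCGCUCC
Mir1981: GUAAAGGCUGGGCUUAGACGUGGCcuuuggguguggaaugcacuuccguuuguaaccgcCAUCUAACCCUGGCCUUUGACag
The hairpins of Mir1224 (chr16:20604452-20604536, plus strand), Mir877 (chr17:35960730-35960814, minus strand) and Mir1981 (chr1:184822407-184822488, minus strand) start with GU and end with AG, the letters at which introns begin and end. Only 30 of the table's 1005 hairpins, or 2.99%, do both. The listed Mir702 hairpin (chr5:136991433-136991541, plus strand) does neither. It opens 9 bases before the GU of its 5p arm, and it stops with the last base of the 3p arm, without an AG. In the RefSeq gene table the 4 hairpins lie within Vwa5b2, Abcf1 (a protein of translation initiation), Plod3 (a collagen lysyl hydroxylase) and Mtarc2 (a mitochondrial reductase), in the order miR-1224, miR-877, miR-702, miR-1981. That table lists no exons, so the introns were not checked here.

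The mature arms follow with their seeds, bases 2 to 8, in capitals, since the seed sets which targets a miRNA can pair with. The prefix mmu marks mouse and is left off elsewhere.
mmu-miR-1224-5p: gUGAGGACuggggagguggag
mmu-miR-1224-3p: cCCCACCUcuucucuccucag
mmu-miR-877-5p: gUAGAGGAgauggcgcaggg
mmu-miR-877-3p: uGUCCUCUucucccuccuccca
mmu-miR-702-5p: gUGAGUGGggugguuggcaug
mmu-miR-702-3p: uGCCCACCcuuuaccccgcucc
mmu-miR-1981-5p: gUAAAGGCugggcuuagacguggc
mmu-miR-1981-3p: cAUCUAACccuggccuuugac
mmu-miR-3102-5p, same seed as miR-702-5p: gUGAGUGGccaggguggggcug
All 8 arms matched the RefSeq table, no 2 of them share a seed, and miR-3102-5p was the one other mature miRNA of the table with a seed of theirs. G made up 61.9% of miR-1224-5p, 57.1% of miR-702-5p, 55.0% of miR-877-5p and 41.7% of miR-1981-5p. C and U together made up 90.9% of miR-877-3p, 85.7% of miR-1224-3p, 81.8% of miR-702-3p and 66.7% of miR-1981-3p.

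Each array read the 8 arms with 20 probes on 240 spots, 7 to 15 spots per probe. The probes are complementary to the 3′ part of the miRNA, and those of miR-1224-5p are shown because their results differ, as the bases of the miRNA they pair with, in capitals.
10-base probe: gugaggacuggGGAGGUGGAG
11-base probe: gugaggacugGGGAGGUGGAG
These probes pair with bases 12 to 21 and 11 to 21, and leave out the whole seed. Per the array files, the 11-base probe matched chromosome 16 from 20604536 to 20604545 and the 10-base one from 20604537 to 20604545 of mm9, the build of the files. Probes of 11 bases or fewer were 3.28% of the array's probes, whose median length was 16 bases. The probes of the other 7 arms had 10 to 17 bases. None of the 20 stretches occurs in another mature miRNA of the RefSeq table, or in another hairpin, though partial matches were not searched.

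By the detection rule, which asks that more than 50% of the spots be well above background by the scanner software's flag, miR-1224-5p, miR-877-5p, miR-877-3p and miR-702-3p were detected on all 3 arrays. The other 4 arms were detected on none. Of the 1881 miRNAs, 722 (38.4%) were detected on at least 1 array. Before any scaling, the highest mean of miR-1224-3p over its probes and arrays was -0.0543, while the negative control spots had a mean from -0.405 to 0.242 and an SD from 2.85 to 3.85. The probes of miR-702-5p read between -3.62 and 6.67, and those of miR-1981-5p between -0.510 and 4.88. miR-1981-3p was brighter than these in N-Exo and H-Exo, but not in H+G-Exo, where the 14-base probe of miR-702-5p gave the 6.67. Its own 13-base probe read 13.5 ± 2.88, 9.84 ± 3.68 and 6.62 ± 0.678 in N-, H- and H+G-Exo (14, 15 and 11 spots). All lay under the lowest detected signals of 18.8, 15.3 and 17.6. The software's own detection call, which is more lenient, listed miR-1981-3p as detected in N-Exo with a total of 3.77 and as not detected on the other arrays. A fold is therefore given for none of these 4 arms. From the miR-1224 hairpin only the 5p arm was detected, from miR-702 only the 3p arm, from miR-877 both and from miR-1981 neither.

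**Figure D1:**
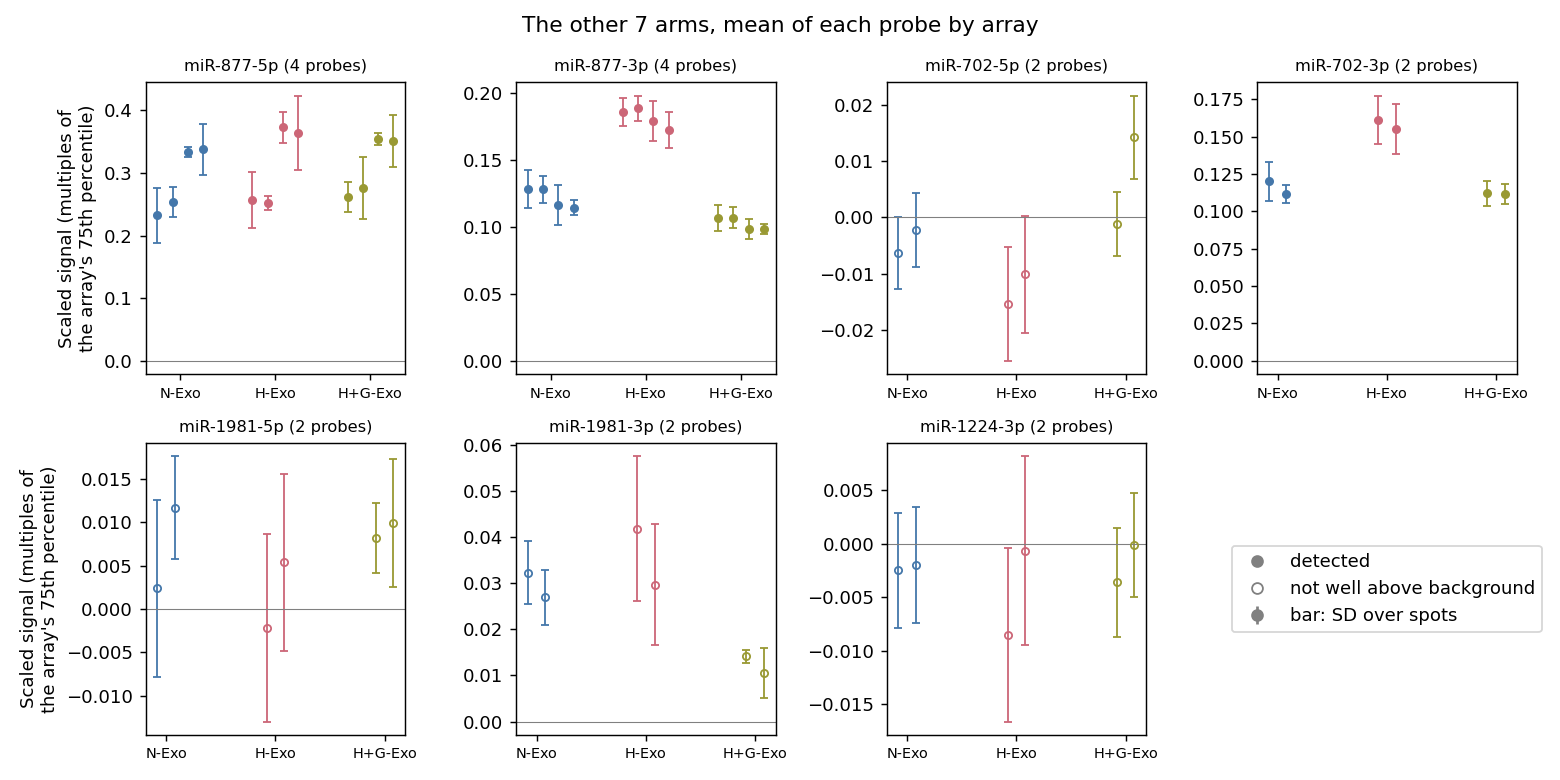
Scaled signal (multiples of the array's 75th percentile) of each probe of the 7 arms other than miR-1224-5p, by array, with the y axis of each panel on its own range. Points are means over spots, bars the SD over spots, and open points were not well above background. Both probes of miR-702-3p and all 4 of miR-877-3p are highest in H-Exo. The probe means of miR-702-5p, miR-1981-5p and miR-1224-3p lie between -0.0154 and 0.0142.

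To compare arrays, signals were scaled, with 1 scaled unit being the 75th percentile of those probes that all 3 arrays detected. That percentile was 417 for N-Exo, 235 for H-Exo and 469 for H+G-Exo. "Rose" and "fell" are used for miRNAs with a difference of 2-fold or more that also passed 2 standard errors (SE) over spots, with detection required on both arrays. The brightest probe gives the value of a miRNA. All 3 comparisons share arrays with each other. As a check of the labelled cells, 8 of 8 stromal marker miRNAs, miR-21a-5p and miR-143-3p among them, were detected in N-Exo and H+G-Exo and 7 of 8 in H-Exo, while 0 of 2 endothelial, 0 of 5 epithelial and 0 of 1 liver markers were detected on any array. Of the 7 blood markers 2 to 3 were detected per array, and of the 5 of muscle and heart 1 to 2. The summed scaled level of the stromal markers was 293, 127 and 50.4 in N-, H- and H+G-Exo. Of 8 neuron markers, 3 were detected in N-Exo and 1 on each of the other arrays, with summed levels of 0.469, 0.251 and 0.200 in the same order. The part of other cells in the values below was not tested.

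What hypoxia changed is read from H-Exo against N-Exo. miR-1224-5p rose from a scaled signal of 210.3 ± 7.74 in N-Exo to 424 ± 11.0 in H-Exo (SD, n = 15 spots each), a 2.02-fold rise with an SE of 0.02 on the log2 scale. The ranges over spots, 197 to 221 and 407 to 446, did not overlap. Its 10-base probe read 62.4 ± 0.646 (14 spots) and 109.7 ± 1.63 (14 spots), or 1.76-fold higher, short of 2-fold. The probes of 1 miRNA thus differed in their log2 difference by 0.20, with an SE of 0.02 (20.6% of 476 miRNAs with several probes had a larger gap), and the call rests on the longer one.

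Before scaling, the 11-base probe of miR-1224-5p read 87758 ± 3232 in N-Exo and 99729 ± 2577 in H-Exo, 1.14-fold higher, and the 10-base probe 26032 ± 269 and 25776 ± 384, or 0.990-fold. Most of the difference after scaling is thus the ratio of the scaling values, and the call was lost under 14 of 16 other settings, with log2 differences from 0 to 1.01. The median of the 582 miRNAs measured on both arrays had a log2 difference of 0.34. miR-1224-5p lay 0.67 above that median and above 95.9% of those miRNAs. Dividing an array by 1 number shifts all miRNAs alike, so such scalings cannot move this distance. It was 0.47 by the 10-base probe and 0.52 in the authors' deposited table. Under quantile normalization, which gives the brightest probe of every array the same value, its difference was 0 by construction, which is -0.21 relative to the median.

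**Figure D2:**
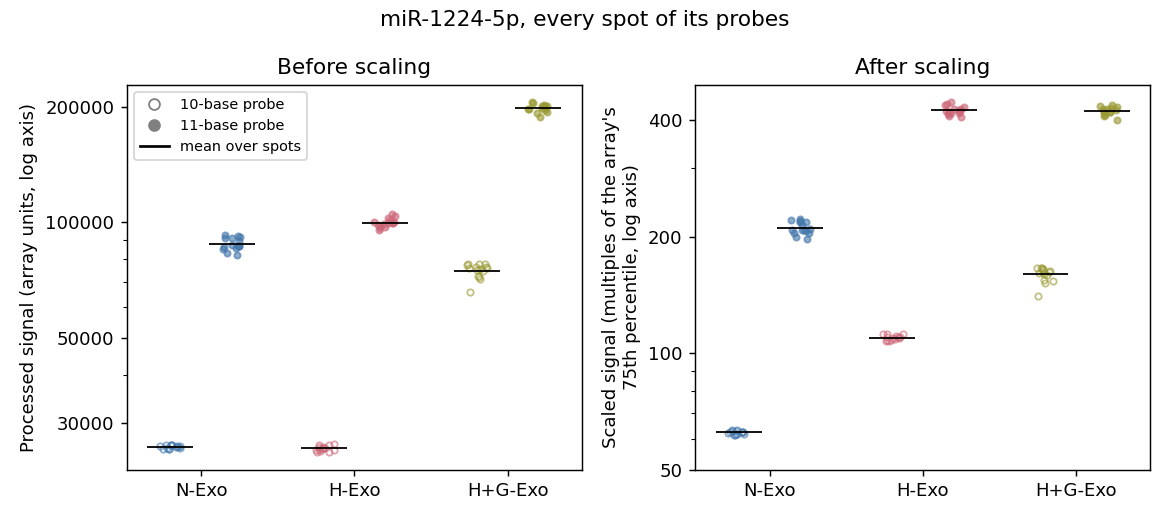
Every spot of the probes of miR-1224-5p on the 3 arrays, before scaling (left, array units) and after it (right, multiples of the array's 75th percentile), both on log axes. Lines are means over spots. Before scaling N-Exo and H-Exo overlap for the 10-base probe, and after it the 11-base probe reads 424 in H-Exo against 422 with GW4869.

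The other 3 detected arms did not pass the 2-fold rule in H-Exo. miR-877-5p read 0.333 ± 0.00837 in N-Exo and 0.373 ± 0.0243 in H-Exo (6 spots each), 1.12-fold higher, and its 4 probes gave log2 differences from -0.01 to 0.16. miR-877-3p, the other arm of that hairpin, read 0.128 ± 0.0102 (8 spots) and 0.188 ± 0.00945 (7 spots), 1.47-fold higher, with 4 probes between 0.54 and 0.62. miR-702-3p read 0.120 ± 0.0132 and 0.161 ± 0.0163 (15 spots each), 1.34-fold higher, with 0.42 and 0.47 from its probes. By the brightest probe of each of these 3 arms, H-Exo had the highest scaled mean and, before scaling, the lowest. For miR-702-3p the unscaled means were 50.1, 37.9 and 52.6 in the order N, H, H+G, for miR-877-3p 53.4, 44.3 and 50.1, and for miR-877-5p 139, 87.6 and 166. Read against the median miRNA, miR-877-3p lay 0.22 above it, miR-702-3p 0.08 above it and miR-877-5p 0.18 below it.

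In all, 1 of the 4 detected arms rose in H-Exo and 0 fell. Of all 582 miRNAs measured, 4.30% rose and 10.7% fell, 14.9% in all. The arms had a median log2 difference of 0.49, against 0.34 for all measured miRNAs. Higher calls were 28.7% of all calls, and from 0.730% to 39.4% under the other settings, so the balance of directions depends on the scaling.

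**Figure D3:**
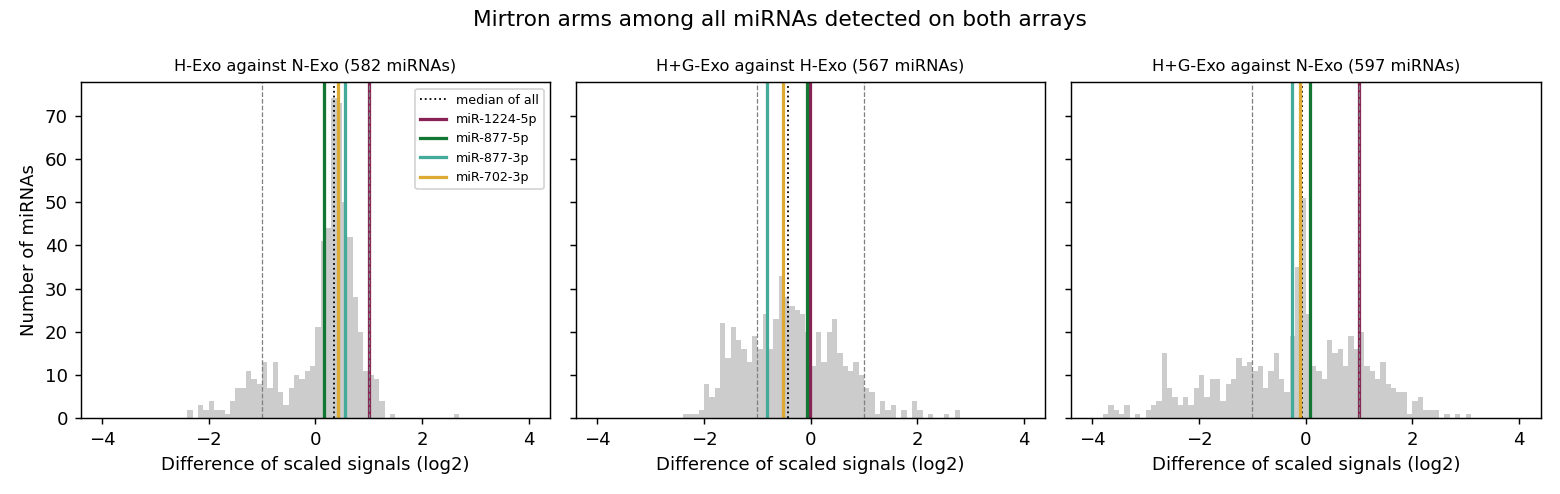
Number of miRNAs (grey) by the log2 difference of their scaled signals in each comparison, over those detected on both arrays, with the 4 detected mirtron arms as coloured lines, the median as a dotted line and 2-fold as dashed lines. miR-1224-5p lies 0.67 above the median in H-Exo against N-Exo, 0.41 above it for H+G-Exo against H-Exo, and 1.07 for H+G-Exo against N-Exo.

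What GW4869 changed under hypoxia is read from H+G-Exo against H-Exo. None of the 4 detected mirtron arms rose or fell, while of the 567 miRNAs measured 6.17% rose and 26.1% fell, 32.3% in all. Higher calls were 19.1% of these calls, but 91.5% with hybridization spike-ins and 96.3% without scaling, so the prevailing direction turns with the scaling. By its 11-base probe miR-1224-5p read 424 ± 11.0 without GW4869 and 422 ± 10.2 with it (14 spots), 0.995-fold, and the ranges over spots overlapped. Its 10-base probe went from 109.7 ± 1.63 to 159.6 ± 7.10 (15 spots), 1.45-fold higher, and there the ranges, 107 to 112 and 140.0 to 166, did not overlap.

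The gap between these probes was 0.55 on the log2 scale, with an SE of 0.02 over spots, so they disagree by far more than their spots vary. Both saw the same RNA on the same arrays, and a scaling constant cannot change the gap. Across the 461 miRNAs with several probes detected on both arrays, the median gap was 0.12, and 9.54% had a larger one. Before scaling the difference was 1.99-fold by the 11-base probe and 2.90-fold by the 10-base probe, with no spot saturated. Whether miR-1224-5p was higher with GW4869 thus depends on the probe and the scaling, and the settings tried spanned log2 differences from -0.01 to 0.99.

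miR-877-3p went from 0.188 ± 0.00945 to 0.107 ± 0.00792 (8 spots), 1.76-fold lower, short of the rule, with its 4 probes between -0.86 and -0.80. miR-702-3p read 0.161 ± 0.0163 and 0.112 ± 0.00818, 1.44-fold lower, and its probes gave -0.52 and -0.47. miR-877-5p read 0.373 ± 0.0243 and 0.354 ± 0.00948 (6 spots), with probes from -0.07 to 0.13. Against the median miRNA, which lay at -0.42, miR-877-5p was 0.35 above, miR-702-3p 0.10 below and miR-877-3p 0.40 below. These signs against zero turned under some scalings. With no scaling miR-877-3p and miR-702-3p differed by 0.18 and 0.47, so both read higher with GW4869 before scaling.

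**Figure D4:**
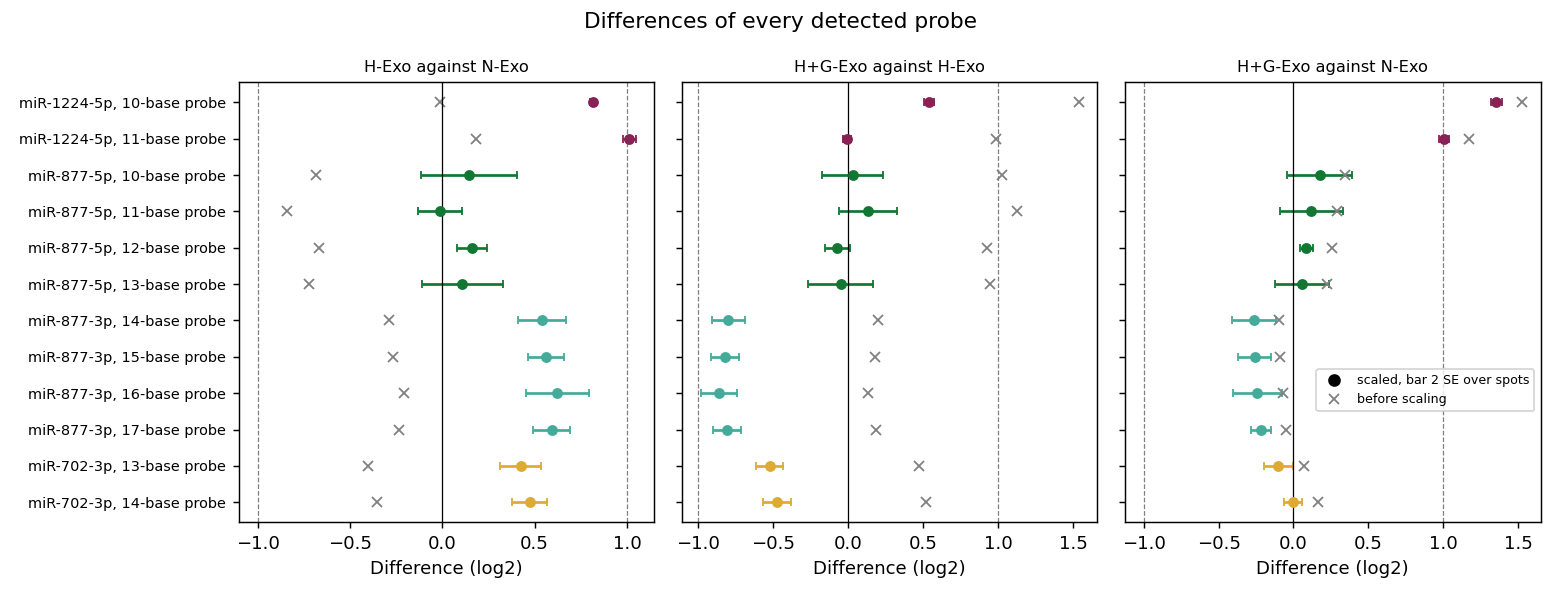
Log2 difference of every detected mirtron probe in the 3 comparisons, scaled (circles, bars are 2 SE over spots) and before scaling (crosses), with 2-fold as dashed lines. The widest gap between probes of 1 arm is that of miR-1224-5p, at 0.54 and -0.01 in H+G-Exo against H-Exo, where the probes of miR-877-5p span 0.20.

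The arms of miR-877 come from 1 hairpin, and the gap between them is the same for any scaling constant, though not for another background correction. In H+G-Exo against H-Exo the log2 difference was -0.07 for the 5p arm, nearly level, and -0.82 for the 3p arm. The gap, 5p minus 3p, was thus 0.75, with an SE of 0.06 over spots, which is 1.68-fold. All 16 pairings of a 5p with a 3p probe gave the same sign, from 0.73 to 0.99. In H-Exo against N-Exo the sign was the opposite, -0.40 with pairings from -0.63 to -0.38, and in H+G-Exo against N-Exo it was 0.35 (0.27 to 0.44). With normexp background correction, which here adds an offset of 50, these gaps shrank to 0.20, -0.18 and 0.02 in the same order. The 3p arm then differed by -0.43, 0.43 and exactly 0, as it would if N-Exo and H+G-Exo were both raised to the floor for low levels. The part of the floor and the offset in the smaller gaps was not tested. With quantile normalization the gaps were 0.85, -0.30 and 0.55. Such unequal change of arms was common on these arrays: 46.2% of the 52 hairpins with both arms measured in H+G-Exo and H-Exo had a larger gap, as did 44.6% of 56 for H-Exo against N-Exo and 85.0% of 60 for H+G-Exo against N-Exo.

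Against normoxia, miR-1224-5p rose 2.01-fold in H+G-Exo, from 210.3 ± 7.74 to 422 ± 10.2, by its 11-base probe, and its 10-base probe read 2.56-fold higher, from 62.4 ± 0.646 to 159.6 ± 7.10. Before scaling these were 2.26-fold and 2.87-fold, so the difference was at least as large without scaling. The call was kept under 14 of 16 other settings and lost with quantile normalization and in the authors' deposited table. In that table its log2 level is 14.8 in N-Exo and 15.5 in both H-Exo and H+G-Exo. All 3 columns of that table have the same maximum, 17.2, and the last 2 values are identical to every deposited digit, so the tie is not taken here as a measure of equal levels. miR-877-5p differed by 1.06-fold, miR-702-3p by 0.933-fold and miR-877-3p by 0.836-fold, so 1 of 4 arms rose and 0 fell. Among all 597 miRNAs measured, 18.6% rose and 26.5% fell, or 45.1% in all, and 81.4% of them lay below miR-1224-5p. The arms' median was -0.01, against -0.06 for all. Higher calls made up 41.3% of all calls, and 37.2% to 58.7% under the other settings.

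**Figure D5:**
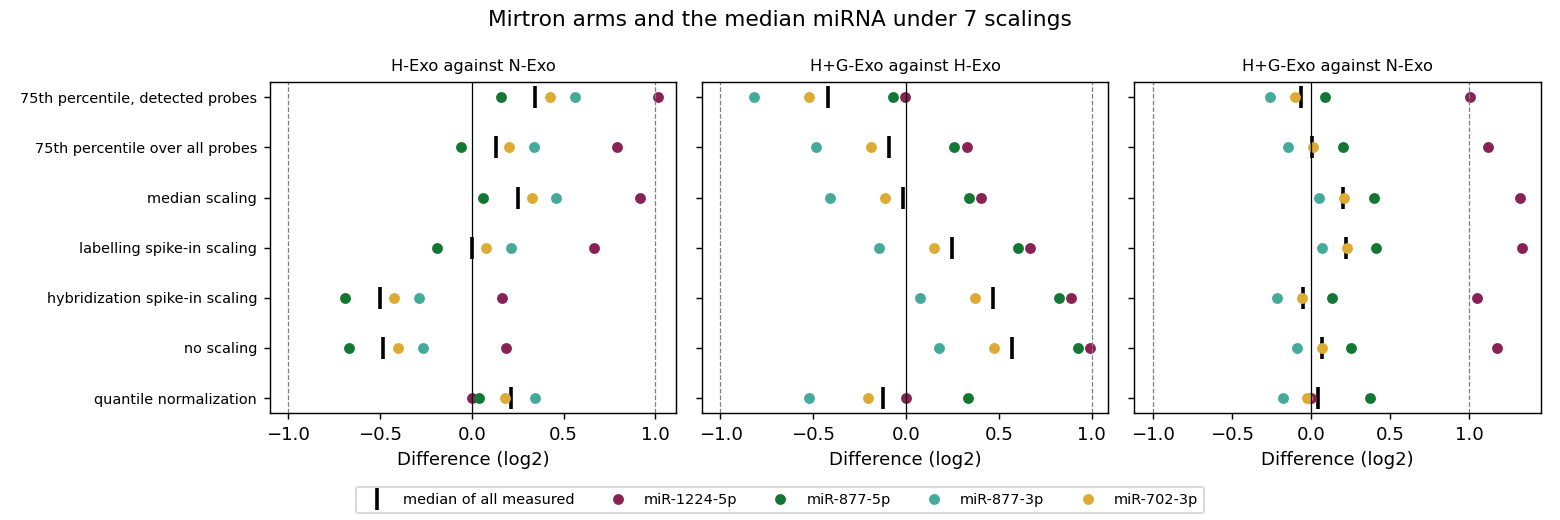
Log2 difference of the 4 detected mirtron arms (circles) and the median of all measured miRNAs (black bars) under 7 scalings, in the 3 comparisons. Scalings by 1 number per array shift the arms and the median together by construction, while quantile normalization puts miR-1224-5p at 0 in each comparison.

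Probe composition varied with these differences. The GC content was 70.0% and 72.7% for the probes of miR-1224-5p, 69.2% to 80.0% for miR-877-5p, 58.8% to 64.3% for miR-877-3p and 61.5% and 64.3% for miR-702-3p. The median brightest probe of the measured miRNAs had 60.0%. Across miRNAs, which share the array and its scaling, Spearman's rho between probe GC content and the log2 difference was 0.44, 0.42 and 0.50 for hypoxia, GW4869 under hypoxia, and H+G-Exo against N-Exo. The part of composition in the mirtron values was not tested.

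Likeness to other miRNAs was measured as the distance between their pairs of log2 differences, H-Exo minus N-Exo and H+G-Exo minus H-Exo, over the 3 arrays and 558 candidate miRNAs. By its brightest probe, nearest to miR-1224-5p were miR-6978-5p (distance 0.06), miR-7648-3p (0.12) and miR-7222-3p (0.19). miR-7648-3p, for one, read 4.00 ± 0.116, 8.68 ± 0.205 and 8.25 ± 0.219 in N-, H- and H+G-Exo. The brightest probe of miR-1224-5p gave the pair 1.01 and -0.01, but its 10-base probe gave 0.81 and 0.54. The gap between these probes in H+G-Exo minus H-Exo, 0.55, exceeds each distance given for miR-1224-5p. Its neighbours thus depend on the probe, and those by the 10-base probe were not searched. Nearest to miR-877-5p were miR-290b-3p (0.05), miR-320-3p (0.05) and miR-6937-3p (0.07), which all stayed nearly level. Nearest to miR-877-3p were miR-8112 (0.06), miR-7008-5p (0.06) and miR-6995-5p (0.08), and nearest to miR-702-3p miR-7069-5p and miR-6934-3p (both 0.01) and miR-7033-3p (0.03). With 3 arrays such distances describe levels on these arrays only.

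Other miRNAs made by unusual, non-canonical routes were listed beside the mirtrons. Of the 14 names listed, 10 besides miR-451a are on the array, and 6 of these were detected on at least 1 array. miR-451a, which is among the 14, is on the array too and was detected, but these counts leave it out. miR-1982-5p, which comes from a mirtron with a tail, read 0.950 ± 0.153, 1.36 ± 0.232 and 1.79 ± 0.306 in N-, H- and H+G-Exo, which is 1.88-fold higher in H+G-Exo than in N-Exo. miR-3102-5p, another from a tailed mirtron and the one with the seed of miR-702-5p, read 2.07 ± 0.167, 2.36 ± 0.234 and 3.32 ± 0.320, so both were highest with GW4869 without passing the rule. miR-320-3p, from a capped precursor that needs no Drosha, stayed at 0.874 ± 0.0651, 0.943 ± 0.0656 and 0.889 ± 0.103.

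miR-1839-5p fell 2.26-fold in H-Exo against N-Exo, from 0.267 ± 0.0233 to 0.118 ± 0.0155, and miR-1839-3p fell 2.33-fold in H+G-Exo against H-Exo, from 0.451 ± 0.0154 to 0.194 ± 0.0208. Against N-Exo both arms of miR-1839 fell in H+G-Exo, 3.18-fold and 4.38-fold. miR-484, whose precursor is also a capped transcript, read 0.0491 ± 0.00794 in N-Exo and 0.0461 ± 0.00976 in H+G-Exo and was not detected in H-Exo. Leaving out miR-451a, 5 of the list's miRNAs were measured in H-Exo and N-Exo, of which 0 rose and 1 fell. The same counts held in H+G-Exo against H-Exo. Of the 6 measured in H+G-Exo and N-Exo, again without miR-451a, 0 rose and 2 fell. These 6 include miR-484, whose levels on both arrays lay under the floor of 0.0653. Its difference was thus 0 by construction. miR-451a itself was more than 2-fold lower in H+G-Exo against both H-Exo and N-Exo, so these counts of fallen miRNAs may be too low.

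The series from miR-6896 to miR-7093 was annotated later and includes many intron-derived hairpins. Of its 200 5p arms on the array 117 (58.5%) were detected on at least 1 array, and of its 198 3p arms 37 (18.7%). Among the 4 mirtrons, 2 of the 5p arms and 2 of the 3p arms were detected. In H-Exo against N-Exo the 99 measured 5p arms had a median log2 difference of 0.48 and the 22 measured 3p arms of 0.39. With GW4869 under hypoxia the medians were -0.10 over 100 5p arms and -0.53 over 22 3p arms, and in H+G-Exo against N-Exo 0.41 over 101 and -0.11 over 28. Among the 5p arms 3 rose and 0 fell in the first of these comparisons, 6 rose and 16 fell in the next, and 27 rose and 12 fell in the last. Among the 3p arms 0 rose in any comparison and 1 fell, with GW4869 under hypoxia. For that comparison miR-877-5p, at -0.07, lay near the 5p median, and miR-1224-5p was at -0.01 by its 11-base probe but at 0.54 by its 10-base probe, while miR-877-3p and miR-702-3p, at -0.82 and -0.52, lay below and close to the 3p median.

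The 27 other hairpins that start with GU and end with AG are a set chosen after the values were seen. They include 21 of that later series, canonical precursors such as Mir20a, and Mir1982, whose 5p arm is also in the non-canonical list above. Of their 25 5p arms 19 were detected on at least 1 array, and of their 24 3p arms 6. Their 15 measured 5p arms had medians of 0.47, -0.02 and 0.50 in the 3 comparisons in the order above. Of these 15, 1 rose in H-Exo against N-Exo, 1 rose and 2 fell with GW4869 under hypoxia, and 5 rose and 2 fell in H+G-Exo against N-Exo. Their measured 3p arms, 3, 3 and 5 in number, had medians of 0.30, -0.43 and -0.09, and none passed the rule in any comparison.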

How the data were processed

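Per the file headers, Agilent Feature Extraction 10.7.1.1 read the 3 Cy3 arrays, and the deposited intensity per spot has the background subtracted and no scaling between arrays. All 3 arrays share 1 slide and 1 scan. The deposited value table was read as log2 values, normalized by a method not given in the sources used here. Its column medians are -3.32, -3.00 and -3.30 in N-Exo, H-Exo and H+G-Exo. The labels' protocols name a kit for cRNA, so how the RNA was labelled is uncertain, as is whether samples were pooled.

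Groups came from the treatment in the labels. Outlier spots were left out, 8, 10 and 10 of the mirtron spots. Probe means were put in units of the 75th percentile of the probes that all arrays detected, raised to a floor of 0.0653 and logged (numpy 2.4.6, pandas 2.3.3). normexp ran in limma 3.58.1. The number of arrays limits the precision. The procedure was tested on simulated data. The members and lists were chosen with earlier results of these data known. Named are all members, their 3 nearest miRNAs, seed sharers and detected miRNAs of the non-canonical list. The alternatives are in the closing section.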

Additional observations from a re-analysis of the deposited data

How the results depend on the processing

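No paired analysis was possible because each group is 1 array, and no replicate could be left out. The 10-base probe was added after the data were seen. For miR-1224-5p the log2 difference of H-Exo against N-Exo, 1.01, became 0.79 when all probes set the 75th percentile, 0.91 with median scaling, 0.66 with labelling spike-ins, 0.16 with hybridization spike-ins, 0.18 without scaling, 0 with quantile normalization, 0.88 with normexp, 0.91 with the mean of log2 over probes, 0.94 with all spots required above background, 0.77 in the software's total, 0.73 in the deposited table and 0.81 by the 10-base probe. The count of mirtron arms that rose there, 1, became 0 under these 12 and also with the sum of probes or the median over spots, and stayed 1 with outlier spots kept or without the detection filter. For H+G-Exo against H-Exo the same quantity, -0.01, became 0.33, 0.40, 0.67, 0.89 and 0.99 with the first 5 of these scalings in that order, 0.16 with normexp, 0.12 with the sum of probes, 0.27 with the mean of log2, 0.059 with all spots above background, 0.44 in the software's total and 0.54 by the 10-base probe. For H+G-Exo against N-Exo, 1.01 became 1.12, 1.32 and 1.33 with the first 3 scalings, 1.17 without scaling, 0 with quantile normalization, 1.09 with the sum of probes, 1.18 with the mean of log2, 1.204 in the software's total, 0.73 in the deposited table and 1.36 by the 10-base probe. Its count of 1 became 0 with quantile normalization and in the deposited table. The counts of arms that fell, and of arms higher in H+G-Exo against H-Exo, were 0 under all 16 settings. Of all miRNAs, 25 rose in H-Exo against N-Exo, and from 1 to 50 under the other settings, and 62 fell (42 to 136). In H+G-Exo against H-Exo 35 rose (17 to 184) and 148 fell (7 to 150), and in H+G-Exo against N-Exo 111 rose (58 to 197) and 158 fell (98 to 172). The cause of these shifts was not tested. The gap between the miR-877 arms kept its sign under all 16 settings, from 0.20 (normexp) to 0.95 (deposited table) in H+G-Exo against H-Exo. Many of these settings could not move it and so are no check of it. They are the scalings by 1 number per array, the other detection rules and the 10-base probe of miR-1224-5p. The signals of miR-877 and miR-702-3p, 36.5 to 166 before scaling against lowest detected signals of 15.3 to 18.8, limit their precision.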
